A study of Mus musculus with 72 samples.

Results

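Brain RNA from 3 mice fed Q10 for 14 months was set against brain RNA from 3 mice on the control diet for the same time. These 6 arrays, chosen by the tissue, diet and duration in their labels, belong to a series of 72 arrays. In the series, female SAMP1 mice (Senescence accelerated mice prone 1) received Q10, the oxidised form of coenzyme Q10, QH2, its reduced form, or a control diet from 4 weeks of age. Intake, estimated from mean food intake and body weight, was 500 mg per kg body weight per day for either form. Liver, kidney, heart and brain were collected after 6 or 14 months, at 7 or 15 months of age, from 3 mice per group. The 14-month groups used here are brain on Q10, brain on QH2 and brain on the control diet, and the 6-month brains on Q10 and on control diet serve as an earlier comparison. All mice carry the accelerated ageing background, so no group stands for an ordinary ageing mouse. They shared specific pathogen-free housing, 3 to 6 per cage with fixed grouping, so cage and diet may coincide. The labels give the tissue as brain and name no region.

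Coenzyme Q is a lipid-soluble quinone of the inner mitochondrial membrane. It takes electrons from complex I, complex II and several other dehydrogenases and hands them to complex III, and its reduced form also acts as an antioxidant in membranes. Most cells, neurons and glia included, make their own coenzyme Q from a tyrosine-derived ring and an isoprenoid tail through a chain of mitochondrial COQ proteins.

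The 6 arrays carried the markers of brain tissue. The neuronal gene Snap25 ran from 8576.0 to 9072.2 signal units, the myelin gene Mbp from 9159.0 to 10456.5 and the astrocyte transporter Slc1a2 from 5481.7 to 6105.4. Genes that define other organs lay low, with the liver gene Alb between 12.6 and 29.9 and the heart gene Myh6 between 0.5 and 9.2. Before scaling, the mean signal was 238.0, 264.0 and 169.2 on the Q10 arrays 1, 2 and 3, against 249.3, 281.5 and 215.3 on the control arrays 1, 2 and 3. The Actb 3' to 5' ratio, a measure of RNA integrity and labelling, was 1.77, 1.76 and 1.75 on Q10, against 1.73, 1.69 and 1.66 on control. After quantile normalisation any 2 of the 6 arrays correlated across probe sets at r between 0.974 and 0.982. All values below are normalised signals in array units, and changes are log2 of (signal + 2), Q10 minus control, with limma's standard error.

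No gene in the brain passed the test between Q10 and control at 14 months. Of 27022 probe sets 0 were called at adjusted p under 0.05 (0%), with a smallest adjusted p of 0.249. At unadjusted p under 0.05 there were 1421 probe sets (5.26%), 839 higher (3.1%) and 582 lower (2.15%), where 1351 would be the number with no change anywhere. The change was positive for 48.3% and negative for 51.7% of all probe sets. The precision sets what this can say. The 95% interval of a probe set's change had a median half-width of 0.34, and it lay within a 2-fold change either way for 24078 probe sets (89.1%). Among the 14107 probe sets with a mean signal over 100, the interval lay within 2-fold for 99% and within 1.5-fold for 92.6%. A change above 2-fold was measured for 159 probe sets, 108 higher and 51 lower, of which 10 had a mean signal over 100.

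**Figure D1:**
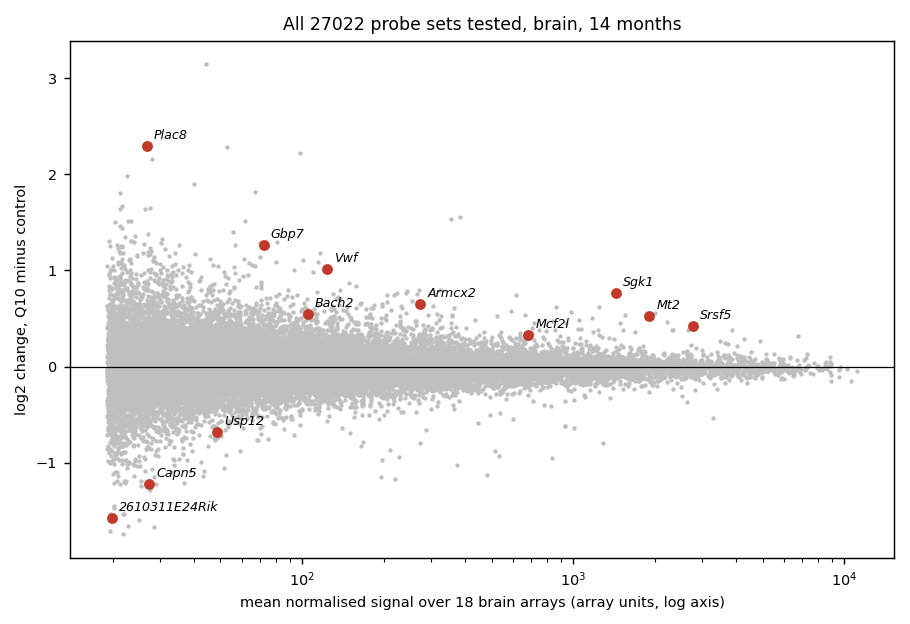
Log2 change in brain, Q10 minus control at 14 months, of all 27022 probe sets tested against their mean normalised signal over the 18 brain arrays (log axis). The 12 named genes are in red; the scatter narrows as the signal grows, and none of the changes passed the test.

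The 12 genes with the smallest p, none of which passed, were 9 higher on Q10 and 3 lower. Their groups did not overlap, as was the case for 3096 probe sets in all (11.5%), with Q10 above control for 4.94% and below it for 6.51%. Armcx2, an X-linked armadillo repeat gene, had 335.5, 309.5 and 366.7 on Q10, against 217.7, 202.6 and 219.6 on control. Every Q10 array lay above every control array, by 0.65 ± 0.12 (adjusted p = 0.249). The 2 brighter probe sets of Armcx2 lay at -0.08 and -0.04, so the gene's probe sets disagree. Gbp7, a guanylate-binding protein of the interferon response, had 88.6, 176.3 and 163.0 on Q10, against 61.8, 58.8 and 47.7 on control. Array 1 was the lowest of the Q10 arrays, and the change was 1.26 ± 0.23 (adjusted p = 0.249). The dimmer probe set of Gbp7 had 51.1, 88.7 and 63.3 on Q10, against 59.7, 53.2 and 29.2 on control. Its change was 0.52 ± 0.27, with overlapping groups.

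The other 10 genes had an adjusted p of 0.766 each. Sgk1, a kinase induced by glucocorticoids, had 1980.7, 1668.3 and 1775.9 on Q10, against 958.0, 1271.7 and 981.3 on control, a change of 0.76 ± 0.18. The groups were set well apart, with the lowest Q10 array above the highest control array. Mt2, a metal-binding metallothionein, had 2644.3, 3953.7 and 2683.1 on Q10, against 2218.4, 2183.5 and 1943.8 on control, a change of 0.52 ± 0.12. Q10 array 2 stood above the other 5 arrays. Srsf5, a splicing factor, had 2331.5, 2487.0 and 2301.6 on Q10, against 1517.7, 1699.7 and 2167.8 on control, a change of 0.42 ± 0.09. Control array 3 lay close to the Q10 arrays. Mcf2l, a guanine nucleotide exchange factor, had 698.8, 756.3 and 751.9 on Q10, against 598.4, 579.9 and 577.3 on control, a change of 0.33 ± 0.08. The 3 control arrays were tight and the Q10 arrays lay just above them.

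Vwf, the endothelial clotting glycoprotein, had 158.7, 419.4 and 274.7 on Q10, against 157.2, 132.1 and 104.0 on control, a change of 1.02 ± 0.24. Q10 array 1 was level with the highest control array. Plac8, expressed in many blood leukocytes, had 24.9, 161.3 and 70.8 on Q10, against 23.2, 3.8 and 16.7 on control, a change of 2.29 ± 0.56 on a dim signal. Here too Q10 array 1 was close to the controls. Bach2, a transcription repressor best known from lymphocytes, had 162.5, 134.5 and 164.4 on Q10, against 106.7, 109.3 and 97.6 on control, a change of 0.54 ± 0.14. Another of its 3 probe sets gave 0.48 and the dimmest 0.04.

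Of the 3 lower genes, Usp12, a deubiquitinase, had 31.6, 36.0 and 42.3 on Q10, against 56.0, 62.1 and 60.8 on control, a change of -0.68 ± 0.17, while its brightest probe set lay at -0.04. Capn5, a calpain protease, had 13.2, 9.7 and 11.5 on Q10, against 37.4, 22.1 and 30.2 on control, a change of -1.22 ± 0.29, and its brighter probe set lay at -0.03. The transcript 2610311E24Rik had 11.7, 2.5 and 7.2 on Q10, against 18.9, 26.0 and 23.4 on control, a change of -1.57 ± 0.39. All 3 rest on signals under 100 units.

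**Figure D2:**
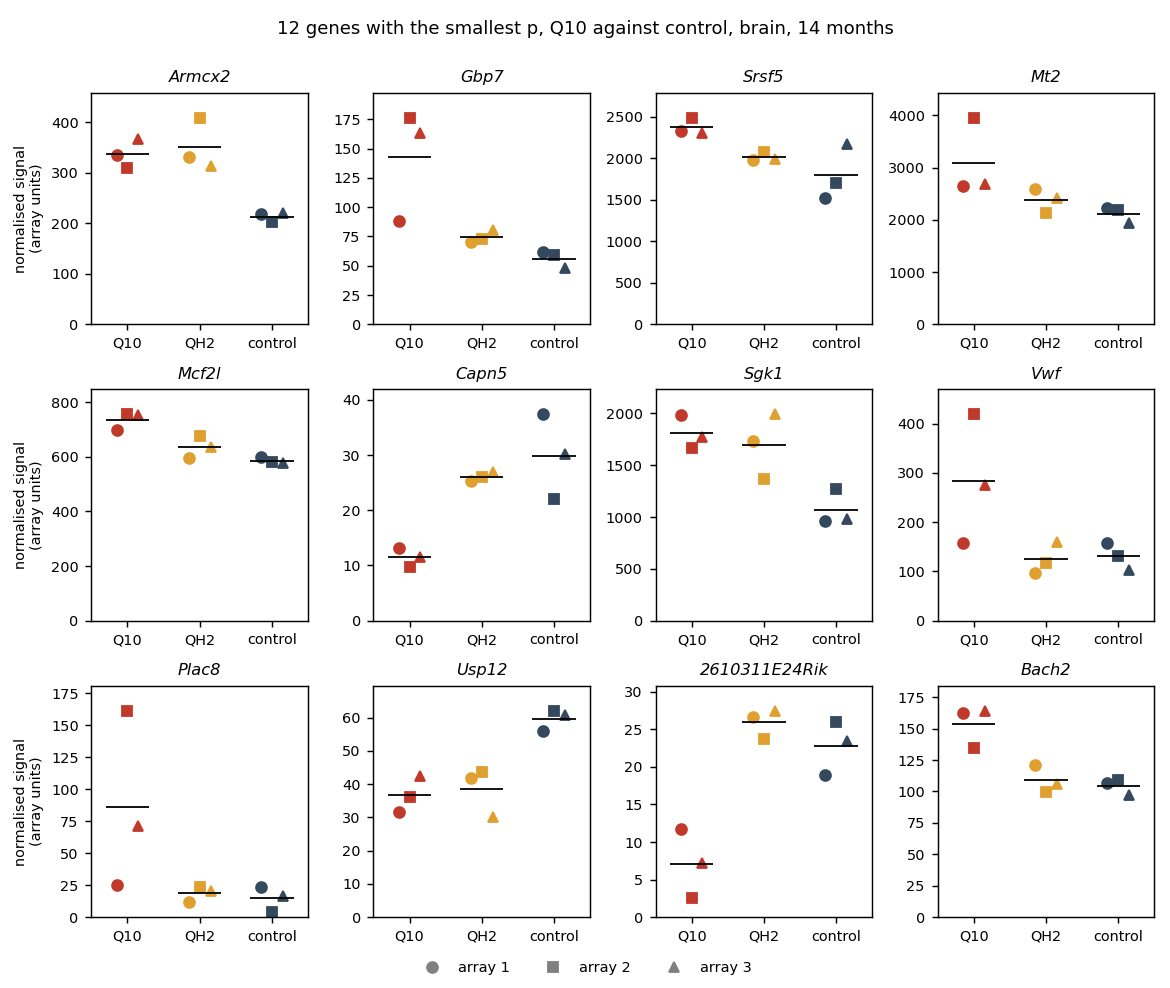
Normalised signal (array units, axis from 0) of the 12 genes with the smallest p in each 14-month brain array on Q10, QH2 and control diet. Symbols mark array 1, 2 and 3 and bars the mean of 3; for Gbp7, Vwf and Plac8 the Q10 arrays 2 and 3 lie above array 1.

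Genes that make or use coenzyme Q lay close to control. Of 12 coenzyme Q synthesis genes 0 passed and 0 had an unadjusted p under 0.05, 6 lay higher and 6 lower, and their median change was 0.01, against -0.0059 for all probe sets. Coq10b, a lipid-binding partner of coenzyme Q, had 336.4, 337.8 and 347.8 on Q10, against 395.5, 431.3 and 429.1 on control. It was the sole member of the 12 whose groups did not overlap, with a change of -0.29 ± 0.15. Groups did not overlap for 11.5% of all probe sets, so 1 of 12 does not stand out. Its paralogue Coq10a had 142.9, 105.4 and 152.3 on Q10, against 89.5, 125.6 and 120.5 on control (0.25 ± 0.16), with overlapping groups. Pdss2, a subunit of the enzyme that builds the isoprenoid tail, lay at -0.13 ± 0.14. Coq2, which joins ring and tail, lay at -0.04 ± 0.07. Of the ring-modifying enzymes, Coq6, a hydroxylase, lay at 0.11 ± 0.17, Coq3, a methyltransferase, at -0.03 ± 0.13, Coq5, a methyltransferase, at 0.04 ± 0.09 and Coq7, a hydroxylase, at 0.07 ± 0.10. The organising proteins Coq4 and Coq9 lay at -0.11 ± 0.12 and 0.03 ± 0.08. The atypical kinases Coq8a and Coq8b lay at -0.02 ± 0.10 and 0.16 ± 0.15. For 10 of the 12 the 95% interval lay within 0.5 either way.

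The respiratory chain gave tighter bounds. None of 33 complex I genes passed or reached an unadjusted p of 0.05, their changes ran from -0.14 to 0.08 with a median of 0.004, and all 33 intervals lay within 0.5 either way. Of 34 genes of complexes III, IV and V 1 had an unadjusted p under 0.05, Uqcrfs1, the Rieske iron-sulphur protein of complex III. It had 1525.4, 1360.8 and 1203.3 on Q10, against 1580.8, 1533.5 and 1489.5 on control, a change of -0.18 ± 0.08. Of 13 genes that feed electrons to ubiquinone 0 reached that level, among them Sdha of complex II at 0.11 ± 0.05 and Aifm2, the ubiquinone reductase FSP1, at -0.36 ± 0.28. Among 30 antioxidant and NRF2 target genes Mt2 alone did so. Its neighbour Mt1 lay at 0.23 ± 0.12 and the glutathione peroxidase Gpx1 at 0.21 ± 0.12, and the list's median was 0.04.

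Inducible genes of the activity and heat shock responses lay lower on Q10 without any member passing. Among 33 immediate early and activity genes, which neurons switch on within minutes of firing, 29 lay lower and 4 higher. Their median was -0.32, with 7 lower and 1 higher at unadjusted p under 0.05, where 2.15% and 3.1% of all probe sets were. The median over the list stood at -0.32, -0.46 and -0.30 on the Q10 arrays, against -0.08, 0.09 and 0.00 on the control arrays, with no overlap. Egr1, a zinc-finger factor of this class, had 2737.1, 2075.4 and 2519.1 on Q10, against 3239.8, 3759.1 and 3602.6 on control (-0.54 ± 0.21). Its relative Egr4 had 113.9, 96.7 and 108.6 on Q10, against 167.3, 193.8 and 193.5 on control (-0.79 ± 0.32). All 3 Q10 arrays were below all controls for both, as for 16 of the 33 members and 6.51% of all probe sets. Bdnf, a neurotrophin, had 254.6, 195.6 and 168.4 on Q10, against 279.5, 327.0 and 249.2 on control (-0.48 ± 0.20), with overlapping groups. The exception among the members with the smallest p was Sgk1, which is on this list and lay higher. The 7 became 0 without Q10 array 2 or without control array 2, 2 without control array 3 and 4 without control array 1. They became 2 with the Actb ratio as a covariate or with no intensity trend, 13 with array weights, 15 with the values as deposited and 20 in the fit of only the groups compared.

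The heat shock chaperones were the other group. Of 24 genes 21 lay lower and 3 higher, with a median of -0.13 and 9 lower against 0 higher at unadjusted p under 0.05. At that level 2.15% of all probe sets were lower and 3.1% higher. The list's median was -0.09, -0.20 and -0.10 on the Q10 arrays, against 0.05, 0.00 and -0.06 on the control arrays. The promoters of its members Hspa1b and Hspa1a are shown because they hold the core of the heat shock element, the site through which heat shock factor is known to drive these genes, and the pair differ at 4 of 300 bases. The sequences are RefSeq's on GRCm38.p6, 250 bases before to 50 after the start, 5′ to 3′ on the gene's strand, and capitals mark GAANNTTC.
Hspa1b (chr17:34959189-34959488, minus strand): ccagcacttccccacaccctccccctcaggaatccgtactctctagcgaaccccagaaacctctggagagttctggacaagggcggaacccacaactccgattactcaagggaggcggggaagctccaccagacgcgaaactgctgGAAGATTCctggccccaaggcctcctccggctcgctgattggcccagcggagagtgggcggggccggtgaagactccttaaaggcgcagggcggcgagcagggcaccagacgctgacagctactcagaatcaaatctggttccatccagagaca
Hspa1a (chr17:34972107-34972406, minus strand): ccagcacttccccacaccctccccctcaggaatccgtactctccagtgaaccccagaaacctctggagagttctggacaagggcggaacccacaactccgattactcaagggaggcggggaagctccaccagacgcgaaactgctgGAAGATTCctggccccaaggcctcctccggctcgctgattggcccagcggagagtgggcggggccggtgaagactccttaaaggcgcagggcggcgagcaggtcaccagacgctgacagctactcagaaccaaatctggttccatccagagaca
Of the 24 members 20 had a promoter in the RefSeq table, and 10 of these (50%) held GAANNTTC on either strand, against 2149 of 27025 promoters of all genes (7.95%). The share describes the list, and a match is not a bound site.

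Hspa1b, an inducible HSP70, had 441.8, 230.3 and 558.7 on Q10, against 848.2, 773.6 and 916.6 on control, a change of -1.13 ± 0.33. Hspa1a, its near copy, had 148.6, 115.7 and 168.0 on Q10, against 288.6, 230.4 and 248.2 on control, a change of -0.83 ± 0.30. Probes for these 2 genes may take up RNA of either, so they are not independent. Dnajb1, the HSP40 that works with HSP70, had 915.8, 851.8 and 743.0 on Q10, against 1281.2, 1412.6 and 1200.3 on control, a change of -0.63 ± 0.17 (unadjusted p = 0.0014, adjusted p = 0.766). Dnaja1, a more constant family member, had 2374.9, 2142.3 and 2125.8 on Q10, against 2498.2, 2501.5 and 2463.9 on control, a change of -0.17 ± 0.06. In all 4 genes the highest Q10 array was below the lowest control array, as for 9 of the 24 members and 6.51% of all probe sets. The 4 were named for a small p in this comparison, which favours clear groups. Leaving out any 1 of the 6 arrays kept the list's median between -0.17 and -0.08, with 3 to 9 members lower and 0 higher at unadjusted p under 0.05. The 3 were found without Q10 array 2, and the median of -0.08 without control array 1. The values as deposited also gave 3, with a median of -0.31, and the Actb covariate gave 5.

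Glucocorticoid response genes mostly lay higher. Of 16 tested, 12 lay higher and 4 lower, with a median of 0.26 and 4 higher against 0 lower at unadjusted p under 0.05. At that level 3.1% of all probe sets were higher and 2.15% lower. The 4 higher genes were Mt2 and Sgk1, described above, Hif3a, a hypoxia-inducible factor family member, and Sult1a1, a sulphotransferase. Without Q10 array 2 the median was 0.13 and the count 3, and with the values as deposited the median was 0.10, with 2 higher and 1 lower. Hif3a had 69.1, 83.3 and 58.1 on Q10, against 52.0, 37.0 and 27.2 on control (0.86 ± 0.28). Sult1a1 had 101.2, 175.0 and 119.7 on Q10, against 80.2, 94.2 and 74.1 on control (0.63 ± 0.22). Q10 array 2 was the highest array for 3 of the 4, Sgk1 being the exception. The Mt2 promoter (RefSeq, GRCm38.p6, plus strand) is shown because it holds 4 matches, in capitals, to the core of the metal response element, TGCACNC or TGCGCNC on either strand.
Mt2 (chr8:94172368-94172667): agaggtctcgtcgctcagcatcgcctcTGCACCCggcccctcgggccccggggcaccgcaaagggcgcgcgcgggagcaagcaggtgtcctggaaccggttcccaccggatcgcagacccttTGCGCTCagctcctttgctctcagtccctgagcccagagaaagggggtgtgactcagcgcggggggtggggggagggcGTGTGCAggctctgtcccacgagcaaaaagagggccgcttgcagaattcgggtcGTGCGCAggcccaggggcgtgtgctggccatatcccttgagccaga
This short core was in 6909 of 27025 promoters (25.6%) and in 5 of the 14 list members with a promoter in the table.

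The medians of the interferon, antigen presentation and endothelial lists lay above all control arrays on Q10 arrays 2 and 3 and within or below the control range on Q10 array 1. Single genes differed from this, among them the endothelial member Kdr, for which Q10 array 1 also lay above all controls. The same held for the brighter probe set of Gbp7, which is on none of these lists. In whole brain RNA, more cells of a type and more RNA per cell cannot be told apart. Of 26 interferon response genes 21 lay higher and 5 lower, with a median of 0.29. At unadjusted p under 0.05, 6 were higher and 0 lower, against 3.1% and 2.15% of all probe sets. The 6 became 1 without Q10 array 3, with a median of 0.08, 2 without Q10 array 2, 3 without control array 3 and 9 without Q10 array 1. By array the list's median was -0.14, 0.33 and 0.36 on Q10, against 0.06, -0.03 and -0.05 on control. On QH2 it was 0.09, 0.12 and 0.16, above all control arrays. Against control 21 of 26 members lay higher on QH2, with 0 higher and 1 lower at unadjusted p under 0.05. Igtp, an interferon-induced GTPase, had 64.6, 160.2 and 213.0 on Q10, against 71.7, 64.5 and 74.2 on control (0.88 ± 0.28). Gbp2, a guanylate-binding protein, had 48.0, 142.0 and 149.7 on Q10, against 73.4, 42.9 and 47.1 on control (0.90 ± 0.34). In both, Q10 arrays 2 and 3 lay above all control arrays and Q10 array 1 lay among them. Rtp4 lay at 0.55 ± 0.18 and Irgm1 at 0.52 ± 0.20.

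All 10 antigen presentation genes lay higher, with a median of 0.14, and 3 had an unadjusted p under 0.05. At that level 3.1% of all probe sets were higher. Without Q10 array 1 the median was 0.63 and the count 5. The median was 0.09 without Q10 array 2, 0.35 without control array 1 and 0.02 with the values as deposited. H2-D1, a class I heavy chain, had 194.6, 406.5 and 336.6 on Q10, against 216.0, 144.3 and 146.8 on control (0.84 ± 0.22). B2m, the class I light chain, had 1011.4, 1587.0 and 1366.5 on Q10, against 1066.5, 917.2 and 879.4 on control (0.45 ± 0.14). Cd74, the class II invariant chain, had 69.1, 194.4 and 180.9 on Q10, against 113.1, 81.8 and 59.1 on control (0.71 ± 0.30). Array 1 lay inside the control range for all 3. Cd52, a lymphocyte surface glycoprotein, had 71.4, 223.5 and 158.5 on Q10, against 75.8, 63.5 and 57.7 on control (1.04 ± 0.29). Of 13 T cell and cytotoxic genes on the array 4 were tested, and the other 3, Cd8a, Gzmk and Prf1, lay at -0.32 ± 0.74, -0.10 ± 0.25 and -0.03 ± 0.22. Among 21 microglia genes the median was 0.02 and 1 had an unadjusted p under 0.05, Ly86, at 0.29 ± 0.09.

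Of 16 endothelial genes 15 lay higher, with a median of 0.29 and 3 higher at unadjusted p under 0.05. At that level 3.1% of all probe sets were higher. Without Q10 array 2 the median was 0.12 and the count 1. The count was 8 without Q10 array 1, 5 without control array 1 and 1 with the values as deposited, which gave a median of 0.13. By array the median was 0.02, 0.63 and 0.22 on Q10, against 0.17, 0.00 and -0.11 on control, so array 1 lay within the control range. Beside Vwf, the receptor for vascular endothelial growth factor Kdr had 58.9, 71.7 and 47.2 on Q10, against 41.6, 37.8 and 31.3 on control (0.65 ± 0.22), with array 1 here above all controls. The glucose transporter of the blood-brain barrier, Slc2a1, had 1614.4, 2275.7 and 1793.9 on Q10, against 1698.2, 1467.5 and 1385.2 on control (0.31 ± 0.15). Of 11 pericyte and smooth muscle genes 7 lay higher and 4 lower, with 3 higher and 1 lower at unadjusted p under 0.05. The 3 became 5 without Q10 array 1 and 1 without Q10 array 2. The pericyte gene Abcc9 had 93.8, 199.0 and 117.2 on Q10, against 92.0, 91.0 and 89.7 on control (0.51 ± 0.20). Acta2, smooth muscle actin, lay lower, with 137.8, 135.7 and 140.5 on Q10, against 173.2, 178.5 and 205.6 on control (-0.42 ± 0.11).

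**Figure D3:**
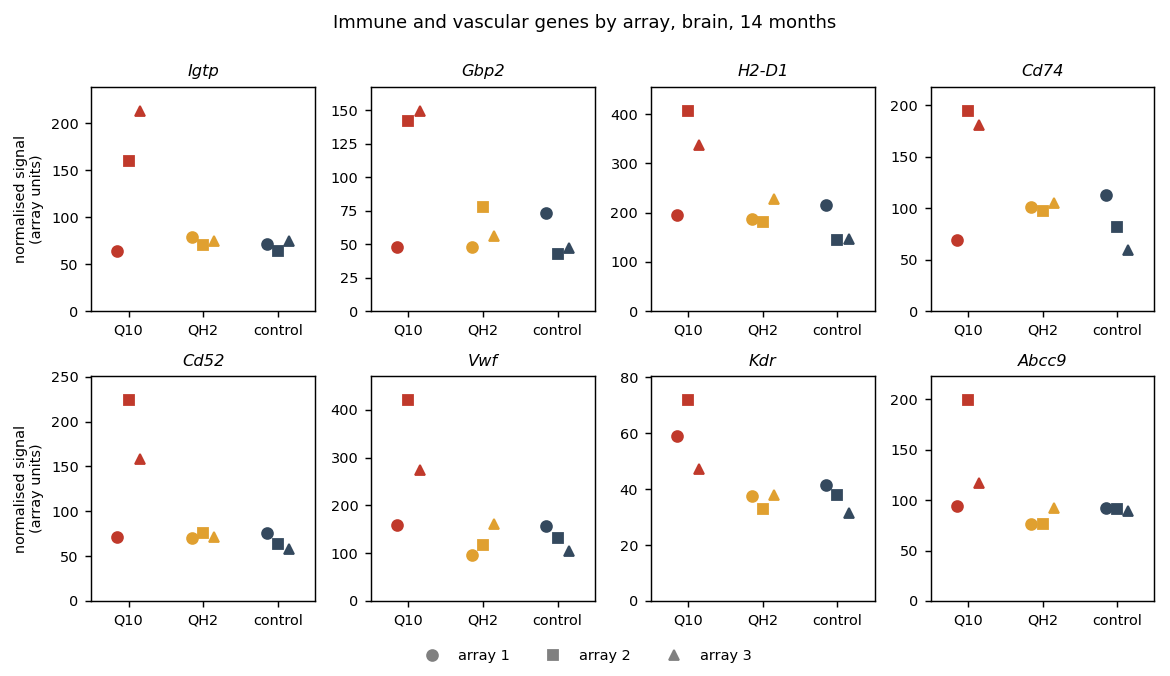
Normalised signal (array units, axis from 0) of 4 interferon or antigen presentation genes, the lymphocyte gene Cd52 and 3 vascular genes in each 14-month brain array on Q10, QH2 and control diet. On Q10 the arrays 2 and 3 lie above all QH2 and control arrays for these genes; array 1 does so for Kdr and lies among or near the other groups for the rest.

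Fits without single arrays were also examined. Without Q10 array 1, 18 probe sets were called, all higher (0.0666%). The 12 genes that could be named among them, chosen after their values were seen, were Iigp1, Gbp7, Igtp, Vegfa, Cd52, Vwf, Ptprc, Ighm, B2m, H2-D1, AW112010 and Plac8. Iigp1, an interferon-induced GTPase, had 15.6, 109.8 and 100 on Q10, against 29.3, 22 and 20.8 on control. The pan-leukocyte gene Ptprc had 50.9, 119.5 and 107.6 on Q10, against 51.6, 46.3 and 46.8 on control. The antibody heavy chain Ighm had 69.5, 147.3 and 152.1 on Q10, against 58.3, 59.4 and 60.5 on control, and the vascular growth factor Vegfa 188.3, 329.7 and 318.8 on Q10, against 187.3, 173.1 and 171.8 on control. In this reduced fit 2 of 26 interferon, 1 of 10 antigen presentation and 1 of 16 endothelial genes were called by their brightest tested probe set. B2m was called by another probe set than the one given above. That probe set had 942.2, 1575.5 and 1517.7 on Q10, against 942.2, 766.1 and 851.1 on control.

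Q10 array 1 was also the lowest Q10 array for most of these probe sets in other tissues at 14 months. Of the 18 probe sets, Q10 array 1 was the lowest of the 3 Q10 arrays for 17 in liver, 15 in kidney and 16 in heart. That is 94.4%, 83.3% and 88.9%, where it was lowest for 38.6%, 32% and 32.7% of all probe sets tested in brain. The 18 were called in the brain fit without Q10 array 1, a choice that favours a low array 1 in brain. Their levels can move together, so they do not count as 18 independent cases. Plac8 had 247.2, 1938.2 and 723.3 in liver on Q10, against 104.2, 75.1 and 114.7 on control. In heart it had 42.1, 581.3 and 902.3 on Q10, against 22.5, 28.2 and 15.8 on control. In kidney it had 402.9, 910.7 and 1401.9 on Q10, against 427.5, 375.4 and 507.6 on control. No label says whether same-numbered arrays of different tissues came from 1 mouse. If they did, the tissues would not be independent either. The interferon list's median in liver, 0.98, 0.81 and 1.82 on Q10, against 0.08, -0.24 and 0.16 on control, lay above all controls on array 1 too. In heart it was 0.51, 0.79 and 0.96 on Q10, against 0.07, -0.04 and -0.01 on control, again with array 1 above the controls. In kidney it was -0.22, 1.19 and 0.55 on Q10, against 0.13, -0.30 and 0.19 on control, with array 1 inside the control range, whereas in brain it lay below it.

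Without control array 3, 49 probe sets were called, all higher (0.181%), of which 26 had a symbol and stood for 21 genes. The splicing or RNA-binding genes Srsf5, Luc7l2, Rbm39, Srek1 and Sfpq and the noncoding RNA Meg3 were among them, chosen after their values were seen. Luc7l2, a splicing factor, had 844.2, 901.6 and 833.8 on Q10, against 438.7, 522.4 and 850.8 on control. The nuclear RNA Meg3 had 1334.5, 1206.2 and 1536.1 on its brightest probe set on Q10, against 786.9, 970.9 and 1478.2 on control. In both, control array 3 was level with the Q10 arrays and controls 1 and 2 were low. With all arrays in, 9 of 10 nuclear long noncoding RNAs lay higher, with a median of 0.26 and 5 at unadjusted p under 0.05. At that level 3.1% of all probe sets were higher. The 5 became 8 without control array 3, with a median of 0.42, and 1 without control array 1, with a median of 0.15. They became 3 without Q10 array 2, 2 without Q10 array 3 or control array 2, and 1 with no intensity trend or with the values as deposited, where the median was 0.09. By array the list stood at 0.16, 0.28 and 0.24 on Q10, against -0.25, -0.06 and 0.25 on control. Neat1, the scaffold of paraspeckles, had 240.2, 290.6 and 263.3 on Q10, against 133.0, 162.8 and 170.0 on control (0.77 ± 0.20, unadjusted p = 0.00112). It did not share the high value of control array 3. Of 26 splicing genes 18 lay higher, with a median of 0.05 that was -0.14 with the values as deposited and -0.02 without Q10 array 3.

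**Figure D4:**
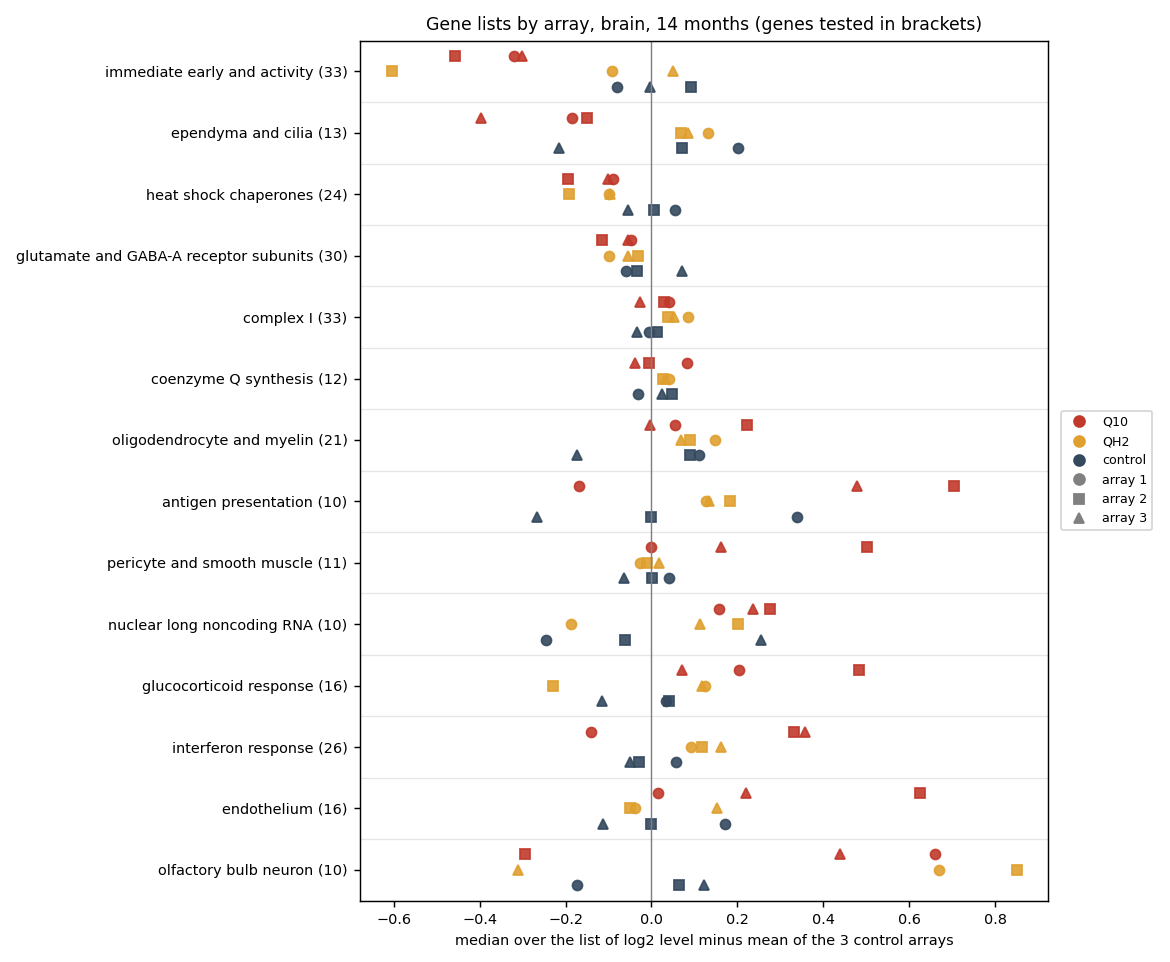
Median over each gene list of the log2 level minus the mean of the 3 control arrays (horizontal axis), for every 14-month brain array on Q10, QH2 and control diet; symbols mark array 1, 2 and 3. Immediate early and heat shock lists lie left of all controls on every Q10 array, interferon and antigen presentation lists lie right of 0 on Q10 arrays 2 and 3, and olfactory bulb genes scatter widely within groups.

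Marker genes of single brain regions, pituitary and blood varied between arrays of a group. Over 10 olfactory bulb genes the median was 0.66, -0.29 and 0.44 on Q10, against -0.17, 0.06 and 0.12 on control. Cdhr1, a cadherin of bulb projection neurons, had 288.6, 35.3 and 228.2 on Q10, against 46.9, 59.3 and 69.2 on control (1.18 ± 0.78). Q10 arrays 1 and 3 were high and array 2 was below all controls. On QH2 Cdhr1 had 283, 329.4 and 41.1. The pituitary hormone gene Gh read 21.5, 12.4 and 100 on Q10, against 8.0, 17.6 and 14.4 on control. On QH2 it read 43, 513.5 and 274. Prl, another pituitary hormone gene, read 28.2, 1.9 and 64.4 on Q10, 46.8, 1110.4 and 442.2 on QH2 and 18, 12.4 and 6.4 on control. Of 13 hypothalamic and pituitary hormone genes 3 were lower and 0 higher on Q10 than on QH2 at unadjusted p under 0.05. In that pair 1.89% of all probe sets were lower and 2.86% higher. Among 5 blood genes the erythroid anion exchanger Slc4a1 had 17.0, 40.5 and 75.0 on Q10, against 24.9, 0.7 and 24.8 on control. Haemoglobin Hbb-b2 had 29.7, 45.8 and 233.7 on Q10, against 90.7, 31.8 and 31.4 on control. For Hbb-b2 Q10 array 3 was high and array 2 was not, while for Slc4a1 both lay above all controls. By array the blood list's median was -0.16, 0.20 and 2.01 on Q10, against 0.42, -0.09 and -0.09 on control. It was 0.395 with all arrays, -0.13 without Q10 array 3 and 1.13 without Q10 array 1. In that last fit 4 of the 5 were higher at unadjusted p under 0.05. At that level were 1552 of 27022 probe sets, higher or lower. Of 13 ependyma and cilia genes 10 lay lower, with a median of -0.28 and 1 at unadjusted p under 0.05, Mia, with 18.2, 24.9 and 25.2 on Q10, against 58.0, 47.6 and 29.0 on control. The part of dissection and of blood content in the results above, and in the comparison with QH2 below, was not tested.

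Neurons and myelin showed small values. The median was -0.01 over 16 general neuron genes, 0.05 over 18 astrocyte genes and 0.10 over 21 oligodendrocyte and myelin genes. It was -0.13 over 11 excitatory and -0.085 over 12 hippocampal neuron genes, with 9 lower in each, and 0.02 over 14 inhibitory neuron genes. These neuron lists had 0 members at unadjusted p under 0.05. The myelin list's sole member at unadjusted p under 0.05 was Apod, a lipid carrier, with 3706.2, 4511.7 and 3591.9 on Q10, against 3262.9, 3267.2 and 2571.4 on control (0.38 ± 0.12). Of 30 glutamate and GABA-A receptor subunits 26 lay lower, by a median of -0.08, with 2 at unadjusted p under 0.05. Gabra3 lay at -0.20 ± 0.08 and Grin2a at -0.43 ± 0.20. Of 26 synaptic vesicle genes 3 lay lower at that level, Stx1a at -0.23 ± 0.10, Cplx2 at -0.15 ± 0.07 and Bsn at -0.17 ± 0.08. Over all 52 lists, 0 of 880 distinct genes passed and 63 had an unadjusted p under 0.05, where 5.26% of all probe sets had. The median lay within 0.1 of 0 for 34 lists.

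Q10 and QH2, the oxidised and the reduced form of the same molecule at the same dose and time, were compared directly as 1 pair. None of the 27022 was called (0%). The smallest adjusted p was 0.254, and 1284 (4.75%) had an unadjusted p under 0.05. The interval of the difference lay within 2-fold for 89.5% of probe sets. P4htm, a prolyl hydroxylase of the endoplasmic reticulum, had 276.0, 400.9 and 384.0 on Q10, against 804.1, 1185.7 and 829.8 on QH2 (-1.40 ± 0.23, adjusted p = 0.254). Homer1, a postsynaptic scaffold, had 1425.7, 878.2 and 1184.0 on Q10, against 267.1, 249.4 and 485.8 on QH2 (1.83 ± 0.34, adjusted p = 0.269). Depp1, a stress-induced peroxisomal gene, had 196.8, 237.4 and 187.0 on Q10, against 50.6, 80.9 and 59.4 on QH2 (1.69 ± 0.33, adjusted p = 0.269). The groups were clear of each other in all 3, and a fit of only the groups compared called these 3 genes. The genes were named for a small p in this pair, which favours clear groups. How many of all probe sets had clear groups in this pair was not counted. On the 14-month control arrays P4htm had 401.1, 636.4 and 1051.1, from next to the Q10 arrays to among the QH2 arrays. Homer1 had 1289.5, 1587 and 1396.2 there and Depp1 169.6, 128 and 78. On the 6-month control arrays Homer1 had 1361.7, 1288.7 and 486.1, so it can also vary within 1 diet.

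Chaperones of the endoplasmic reticulum had 11 of 26 members higher and 1 lower at unadjusted p under 0.05 in this pair, the highest count among the 52 lists, against 2.86% and 1.89% of all probe sets. Its median was 0.21. Hspa5, the chaperone BiP, had 3410.1, 2913.1 and 3257.1 on Q10, against 2336.9, 2342.3 and 2494.8 on QH2 (0.41 ± 0.11, adjusted p = 0.584). Xbp1, a transcription factor of the unfolded protein response, had 2032.4, 1987.9 and 2317.4 on Q10, against 1621.3, 1694.7 and 1699.7 on QH2 (0.33 ± 0.09, adjusted p = 0.593). In both genes all Q10 arrays lay above all QH2 arrays, and here too the share over all probe sets was not counted. Against the control arrays, which both forms share, the list's median was -0.03 on Q10 and -0.22 on QH2. The immediate early list's was -0.32 on Q10 and -0.28 on QH2. By array it was -0.32, -0.46 and -0.30 on Q10 and -0.09, -0.61 and 0.05 on QH2, against -0.08, 0.09 and 0.00 on control. QH2 array 3 thus lay within the control range and QH2 array 1 just below it. Between the forms 3 of the 33 members were higher and 3 lower at unadjusted p under 0.05.

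Among the 12 named genes the forms lay side by side for some. Against the shared controls Armcx2 was 0.65 higher on Q10 and 0.70 on QH2. Its Q10 minus QH2 difference was -0.05 (95% interval -0.30 to 0.20). The brighter probe sets of Armcx2 disagree, at -0.08 and -0.04 on Q10 and -0.15 and 0.02 on QH2. Sgk1 was 0.76 higher on Q10 and 0.66 on QH2, with a difference of 0.10 (-0.28 to 0.49), and Usp12 was -0.68 on Q10 and -0.62 on QH2, with a difference of -0.06 (-0.41 to 0.30). Vwf differed by 1.09 (0.58 to 1.61, adjusted p = 0.446), Gbp7 by 0.86 (0.37 to 1.35, adjusted p = 0.593) and 2610311E24Rik by -1.76 (-2.58 to -0.93, adjusted p = 0.446). The heat shock list's median was -0.13 on Q10 and -0.12 on QH2 against the shared controls. Between the forms 0 of its 24 members had an unadjusted p under 0.05, where 4.75% of all probe sets had. QH2 against control called 3 probe sets (0.0111%), of Calr, Pdp1 and Homer1, and 4.98% had an unadjusted p under 0.05 (2.2% higher, 2.78% lower). On Q10 the same probe sets lay at -0.11, -0.25 and -0.32 against control, and none of the 3 passed in the test between the forms (adjusted p = 0.269 to 0.530).

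After 6 months, Q10 against control gave 0 calls (0%) in limma, and 1652 probe sets (6.11%) had an unadjusted p under 0.05, 3.15% higher and 2.96% lower. The change in the Q10 effect between 14 and 6 months was tested as an interaction and gave 0 calls (0%). Its smallest adjusted p was 0.182, and 1340 probe sets (4.96%) had an unadjusted p under 0.05, 2.65% higher and 2.31% lower. That smallest p belonged to Armcx2, which after 6 months had 229.2, 217.9 and 187.9 on Q10, against 235.3, 322.1 and 269.5 on control. Its change was -0.37 ± 0.12 then and 0.65 ± 0.12 at 14 months, an interaction of 1.02 ± 0.17. This rests on 1 probe set, and the brighter probe sets of Armcx2 had interactions of 0.09 and -0.06. Mcf2l lay lower after 6 months, with 578.1, 667.5 and 712.4 on Q10, against 703.6, 774.2 and 739.6 on control, an interaction of 0.51 ± 0.11 (adjusted p = 0.924). The interferon list's median was 0.26 after 6 months and 0.29 after 14, and the immediate early list's -0.13 and -0.32. The heat shock list's was -0.04 and -0.13, and the endothelial list's 0.02 and 0.29. After 6 months 25 of 26 interferon genes lay higher, with 2 higher and 0 lower at unadjusted p under 0.05. By array their median was then 0.23, 0.29 and 0.25 on Q10, against 0.11, -0.06 and 0.03 on control. None of the interactions of the 12 named genes passed, with adjusted p between 0.182 and 0.979.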

How the data were processed

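The deposited table holds intensities, 1 linear signal per probe set and array. GCOS is the software the authors used, per the submitters' processing notes; its version is not given in the sources used here. Groups and replicate numbers came from the sample titles. The design text gives 3 mice per group. The 18 brain arrays were quantile normalised because array levels differed, and log2 was taken after adding 2, which is the 10th percentile over all brain values to the nearest whole number. The 64 control probe sets and those with a mean below the 40th percentile were left out, so 27022 of 45101 were tested. They were fitted with limma 3.58.1 (R 4.3.3) with 6 group means and an intensity trend, adjusted by Benjamini-Hochberg and called at adjusted p under 0.05. Of the 72 arrays 6 carry the comparison and their number limits its precision. Exact permutation of 3 against 3 cannot go below p = 0.1. No detection calls were used.

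Of the probe sets 34958 had 1 gene symbol in the platform table, 932 several and 9211 none, and 34754 symbols were updated through Entrez numbers. The 52 gene lists were described by counts and medians, each gene by its brightest tested probe set. The arrays and lists were chosen with earlier results of these data known. The rule for named genes took the 12 genes of lowest p if under 12 passed, up to 4 members with the smallest p of each list described, all coenzyme Q synthesis genes and, for the other comparisons, up to 6 genes a side. Steps were tested on simulated data. Alternatives were other scalings, offset, filters, moderation, array weights, a replicate block, the Actb ratio and leaving out each array. Probe sets with no symbol are counted and not named.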

Additional observations from a re-analysis of the deposited data

How the results depend on the processing

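Q10 against control at 14 months had 0 calls under each of the 10 settings that kept all its arrays, with a smallest adjusted p between 0.053 (values as deposited) and 0.534 (no intensity trend). Leaving out 1 array gave 0 to 49 calls, 18 without Q10 array 1, 49 without control array 3 and 0 in the other 4 fits. Q10 against QH2 had 6 calls with the values as deposited and 3 in the fit of only the groups compared, and 0 to 15 on leaving out 1 array, 15 being without Q10 array 1. The 6 included the pituitary gene Prl. The interaction had 5 calls as deposited, and 0 to 2 on leaving out 1 array, 2 without 14-month control array 3 and 1 without 6-month Q10 array 3. Why these counts moved was not tested. The other settings gave 0 calls for Q10 against QH2 and for the interaction.

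The deviations of same-numbered Q10 and control arrays correlated at 0.00, 0.01 and 0.13, and those of differently numbered arrays between -0.09 and 0.08. With 3 arrays per group these values cannot decide whether the replicate numbers pair the arrays. With the replicate number as a block there were 0 calls in each of the 3 comparisons, with smallest adjusted p of 0.318, 0.0706 and 0.383.

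Values as deposited moved the median change of all probe sets to -0.15 and the split to 22.8% higher and 77.2% lower, against 48.3% and 51.7% after quantile normalisation and 53.4% and 46.6% with trimmed-mean scaling. None of the 12 named genes changed sign in the 14 to 16 alternatives each could be fitted in. Gbp7, Vwf and Plac8 passed only without Q10 array 1, at adjusted p of 0.00603, 0.0103 and 0.047, and Srsf5 only without control array 3, at 0.00571. The medians of the immediate early, heat shock and ependymal lists kept below 0, and those of the interferon, antigen presentation, endothelial, glucocorticoid and long noncoding RNA lists above 0, in their 16 alternatives (15 for the ependymal list). The interferon median was 0.08 without Q10 array 3 and the antigen presentation median 0.63 without Q10 array 1. The median interval half-width was 0.34 over all probe sets and 0.23 over those with a signal over 100, so the bounds were wider for dim probe sets.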

Other observations

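Several lists not described above lay near control in the 14-month brain on Q10. The median change was -0.05 over 20 cholesterol synthesis genes, 0.03 over 20 genes of lipid transport and brain sterol turnover, 0.04 over 13 glycolysis genes and -0.01 over 17 genes of the citric acid cycle and pyruvate dehydrogenase. It was 0.002 over 31 cytosolic ribosomal proteins, -0.01 over 48 mitochondrial ribosomal proteins and 0.01 over 31 proteasome genes. Of 21 genes of amyloid and tau biology 0 had an unadjusted p under 0.05, and their median was -0.02. Of 21 core clock and output genes 17 lay lower, by a median of -0.06, and 0 had an unadjusted p under 0.05. None of these genes passed the test.

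The probe set with the smallest p of all carries no gene symbol in the platform table used here. It read 217.4, 212.4 and 244.8 on Q10, against 112.9, 126.7 and 149.2 on control, a change of 0.79 ± 0.14 (adjusted p = 0.249).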
